A study of Mus musculus with 16 samples.

Results

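The miR-99/100 family and miR-125a were followed across genotypes of conventional type 1 dendritic cells (cDC1s), the cross-presenting dendritic cells of the spleen, by small RNA sequencing. The 4 microRNAs were chosen by identifier: miR-99a-5p (MIMAT0000131), miR-99b-5p (MIMAT0000132), miR-100-5p (MIMAT0000655) and miR-125a-5p (MIMAT0000135), of 853 mature microRNAs in the count table. All mice were labelled C57BL6 and fell into 4 groups of 4 libraries each. Xbp1-deficient mice (labelled Xbp1 KO) lacked the transcription factor XBP1, and compound-deficient mice lacked both XBP1 and its upstream sensor IRE1α. The other groups were the wild types of the Xbp1 line and of the compound line. No allele or agent shared by all groups is named in the labels. The promoter or Cre line behind each deletion, the cells in which it took place and the age of the mice are not stated. Whether each replicate was a separate mouse is not stated either, and p-values therefore reflect only the spread between these libraries, which may be technical.

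A mature microRNA guides Argonaute to messenger RNAs that pair with its seed, the short stretch near its 5′ end, and lowers their stability and translation. The miR-99/100 family shares 1 seed and is known for repressing MTOR, the kinase at the centre of growth signalling. miR-125a belongs to the miR-125 family, which has roles in blood stem cells and in myeloid cells. IRE1α is an endoplasmic reticulum sensor whose RNase domain splices the Xbp1 message and can also cut other RNAs, and the study compared the small RNAs of the genotypes to ask what Xbp1 and IRE1α do in cDC1s.

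The mature sequences are shown because they set which members are expected to share target messages and which could be mistaken for each other in counting. They were taken from RefSeq for build GRCm38.p6, where all 4 members were found by name. They are written 5′ to 3′, with the seed, bases 2 to 8, in capitals, and miR-125b-5p is added as the closest relative of miR-125a-5p.
miR-99a-5p: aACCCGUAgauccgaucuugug
miR-99b-5p: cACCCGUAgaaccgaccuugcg
miR-100-5p: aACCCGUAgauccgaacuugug
miR-125a-5p: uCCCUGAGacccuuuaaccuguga
miR-125b-5p: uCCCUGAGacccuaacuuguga
The family seed ACCCGUA occurred in 3 of 1679 mature mouse microRNAs in the RefSeq table (0.179%), and these were miR-99a-5p, miR-99b-5p and miR-100-5p. The miR-125 seed CCCUGAG occurred in 5 (0.298%), miR-125a-5p, miR-125b-5p, miR-351-5p, miR-6367 and miR-6394. Counted from the 5′ end, miR-99a-5p and miR-100-5p differed by U16A alone. miR-99b-5p stood further off, with A1C, U11A, U16C and U21C against miR-99a-5p and 4 differences from miR-100-5p (from miR-99b-5p to miR-100-5p, C1A, A11U, C16A and C21U). The number of mismatches the alignment allowed is not stated, and reads of miR-99a-5p and miR-100-5p may have been shared between these 2 and their split is uncertain.

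The members came from 3 loci, all on the plus strand in GRCm38. miR-99b-5p (chr17:17830194-17830215) and miR-125a-5p (chr17:17830817-17830840) lay 623 bases apart, start to start, with let-7e-5p between them, 172 bases from the start of miR-99b-5p. Both lay inside the protein-coding gene Spaca6 (chr17:17827158-17843009, same strand), a sperm membrane protein gene. miR-99b-5p overlapped none of its annotated exons, whereas miR-125a-5p overlapped an exon of Spaca6. miR-99a-5p (chr16:77598940-77598961) lay outside the exons of its host RNA gene Mir99ahg. miR-100-5p (chr9:41531437-41531458) lay outside the exons of 3110039I08Rik and Gm49317 on its own strand, and overlapped an exon of the antisense long noncoding RNA Gm48742.

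**Figure D1:**
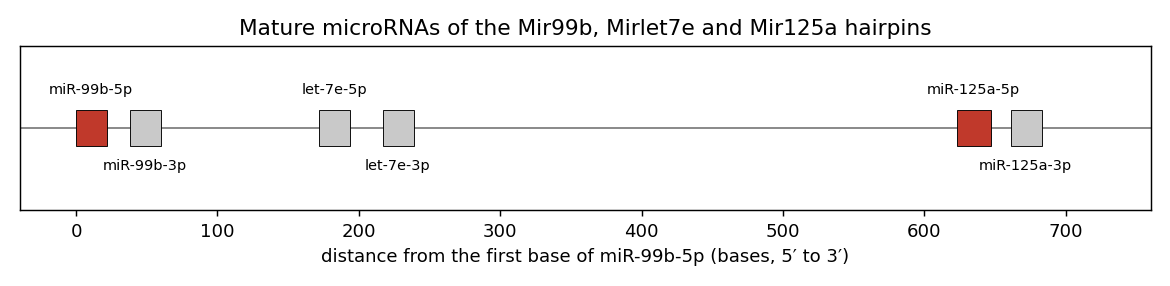
Map of the shared locus of miR-99b-5p and miR-125a-5p, with distance in bases from the first base of miR-99b-5p on the x axis and boxes for the mature arms of the Mir99b, Mirlet7e and Mir125a hairpins, the members in red. let-7e-5p starts at 172 bases and miR-125a-5p at 623 bases.

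Library totals ran from 175165 to 1403393 counts. The compound-deficient group held the smallest library and totals up to 978134, and the other groups spanned 400210 to 1103001 (Xbp1-line wild type), 783372 to 1403393 (Xbp1-deficient) and 332923 to 882108 (compound-line wild type). The count table gives identifiers without names, and let-7e, miR-125b and microRNAs that mark other spleen cells were not analysed here, so the labelled cell type was not checked. Levels are in CPM, counts scaled by library total, with each total adjusted by TMM, a factor that evens out composition. Since all members are 22 to 24 bases long and 1 read covers 1 mature microRNA, no scaling by length was applied. In bulk RNA, fewer cells with a microRNA and less of it per cell cannot be told apart.

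All 4 members were of middling to low abundance in cDC1s. By mean CPM, miR-125a-5p ranked 130 and miR-99b-5p 151 among the 853 microRNAs, while miR-100-5p ranked 238 and miR-99a-5p 251. Summed over the 16 libraries, they had 885, 619, 114 and 104 counts, respectively. miR-125a-5p and miR-99b-5p each had 10 counts or more in 15 libraries, miR-99a-5p in 6 and miR-100-5p in 3. The expression filter of edgeR, a level of 13.0 CPM in at least 4 libraries, was reached by miR-125a-5p and miR-99b-5p in 16 libraries, by miR-100-5p in 6 and by miR-99a-5p in 3. Hence 3 of the 4 members were among the 255 microRNAs tested, and miR-99a-5p was tested in the fit without the filter (808 microRNAs with a count). That fit made almost no allowance for error in its estimate of the spread. Its intervals, those of miR-99a-5p included, may therefore be too narrow and its p-values too small.

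miR-99b-5p, the most abundant member of the family in every library, had a lower mean in both deficient groups than in their wild types. In Xbp1-line wild-type cDC1s it stood at 17.0, 116, 91.0 and 36.3 CPM in replicates 4, 5, 6 and 8 (65.0 ± 46.1, SD, n = 4). In Xbp1-deficient cDC1s it stood at 18.3, 34.3, 44.2 and 53.6 CPM in replicates 1 to 4 (37.6 ± 15.1, SD, n = 4). These groups overlapped, since wild-type replicates 4 and 8 lay within or below the deficient range and only replicates 5 and 6 lay above it. In compound-line wild-type cDC1s the values were 122, 63.8, 59.1 and 59.1 CPM (75.9 ± 30.7, SD, n = 4), and in compound-deficient cDC1s 59.0, 41.6, 22.0 and 21.1 CPM (36.0 ± 18.1, SD, n = 4). Here all 4 deficient libraries lay below all 4 wild-type libraries, although compound-deficient replicate 1 almost touched the lowest wild types. The values of replicates 3 and 4 of the compound-deficient group rested on 12 and 4 counts.

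miR-125a-5p, from the same locus, was the most abundant of the 4 on average, and its groups overlapped in both lines. It stood at 42.4, 98.2, 120 and 26.6 CPM in Xbp1-line wild-type replicates 4, 5, 6 and 8 (71.7 ± 44.3, SD, n = 4) and at 52.1, 60.3, 77.9 and 71.0 CPM in Xbp1-deficient replicates 1 to 4 (65.3 ± 11.4, SD, n = 4). The deficient libraries sat inside the wider wild-type range. Compound-line wild types had the highest mean, with 127, 96.5, 101 and 85.6 CPM (103 ± 17.6, SD, n = 4). Compound-deficient libraries stood at 45.1, 66.6, 123 and 47.5 CPM (70.5 ± 36.2, SD, n = 4), with replicates 1, 2 and 4 below every wild type and replicate 3, at 67 counts, near the top of them.

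miR-100-5p was scarce in every group. Its CPM were 3.77, 12.8, 10.4 and 4.84 in Xbp1-line wild types (7.97 ± 4.36, SD, n = 4) and 2.89, 7.27, 18.5 and 6.70 in Xbp1-deficient cDC1s (8.83 ± 6.71, SD, n = 4). They were 13.5, 17.2, 9.67 and 8.86 in compound-line wild types (12.3 ± 3.86, SD, n = 4) and 5.37, 11.1, 16.5 and 15.8 in compound-deficient cDC1s (12.2 ± 5.15, SD, n = 4). All 4 groups overlapped, and the counts behind these values ran from 2 to 23 per library.

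miR-99a-5p, the other scarce member, was also spread over overlapping ranges. It stood at 3.77, 11.9, 16.9 and 7.26 CPM in Xbp1-line wild types (9.97 ± 5.71, SD, n = 4) and at 11.6, 4.16, 12.8 and 13.4 CPM in Xbp1-deficient cDC1s (10.5 ± 4.29, SD, n = 4). It stood at 2.71, 13.8, 12.9 and 0 CPM in compound-line wild types (7.35 ± 7.02, SD, n = 4) and at 2.15, 8.33, 3.67 and 5.28 CPM in compound-deficient cDC1s (4.86 ± 2.64, SD, n = 4). The compound-deficient values rested on 1 to 3 counts per library. The 0 in compound-line wild-type replicate 4 allows a level of up to 8.86 CPM, the worth of 3 counts in a library of 332923, for counting error only.

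**Figure D2:**
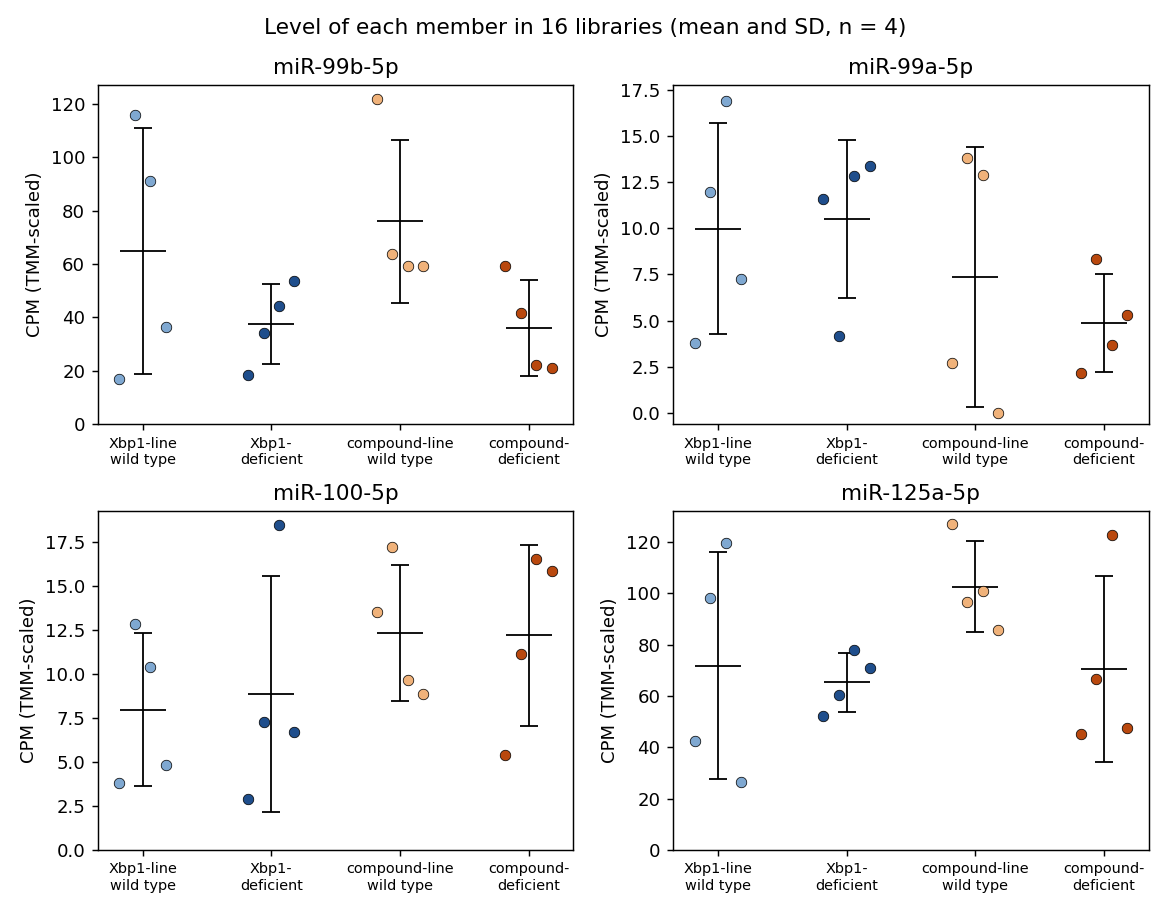
Level of each member in every library, in CPM on TMM-scaled library sizes on a linear axis with its own range in each panel, by genotype group, with 1 point per library, a horizontal line for the group mean and bars for the SD (n = 4). miR-99b-5p lies at 21.1 to 59.0 CPM in compound-deficient libraries and at 59.1 to 122 CPM in their wild types, and each of the other members overlaps between each deficient group and the wild type of its line.

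The spread of miR-99b-5p within groups was wider than counting noise. Its chi-square per degree of freedom, which is about 1 when libraries differ by sampling alone, was 32.0 in Xbp1-line wild types and 5.59, 4.76 and 4.08 in the Xbp1-deficient, compound-line wild-type and compound-deficient groups. For miR-125a-5p it was 20.0, 1.58, 0.988 and 10.6 in the same order. For the scarce members the chi-square per degree of freedom ran from 0.873 to 4.81. Xbp1-line wild-type replicates 4 and 8 were lower than replicates 5 and 6 in all 4 members, which come from 3 loci. This split was therefore not particular to the microRNAs of the shared locus. The tagwise biological coefficient of variation in edgeR was 48.3% for miR-99b-5p, 48.0% for miR-100-5p and 37.8% for miR-125a-5p, against a common value of 31.2% over all tested microRNAs.

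The seed of the family was carried mostly by miR-99b-5p. Of all family reads pooled over the libraries, miR-99b-5p made up 74.0%, miR-100-5p 13.6% and miR-99a-5p 12.4%. Its share ran from 50% to 88.7% in single libraries, and it was the leading member in 16 of 16. By group, the share was 75.9 ± 5.42% in Xbp1-line wild types, 65.5 ± 9.73% in Xbp1-deficient, 78.7 ± 10.5% in compound-line wild types and 64.8 ± 17.9% in compound-deficient cDC1s (SD, n = 4 each). The ranking of the scarce members was not fixed: miR-99a-5p was above miR-100-5p in 5 libraries, equal in 1 and below in 10. The summed level of the family was 82.9 ± 55.3 CPM in Xbp1-line wild types and 56.9 ± 21.1 CPM in Xbp1-deficient cDC1s, with overlapping ranges of 24.5 to 140 and 32.8 to 75.5 CPM. In the compound line it was 95.6 ± 30.3 CPM in wild types (67.9 to 138) and 53.0 ± 12.7 CPM in compound-deficient cDC1s (42.2 to 66.6), ranges that did not overlap under TMM scaling. That sum was mostly miR-99b-5p and was not tested apart from it.

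**Figure D3:**
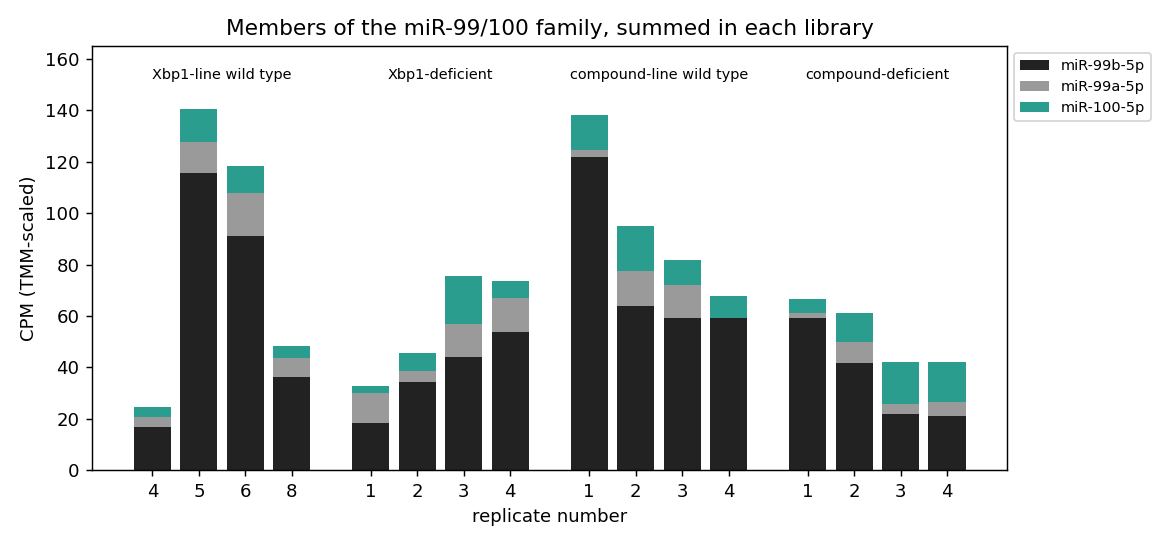
Makeup of the seed family in each library, with the CPM of miR-99a-5p, miR-99b-5p and miR-100-5p stacked from 0 and 1 bar per library, arranged by genotype group. miR-99b-5p forms the largest segment in 16 of 16 bars, at 50% to 88.7% of the family.

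In the Xbp1 line, no tested member passed the test. In edgeR's quasi-likelihood test, miR-99b-5p stood at -0.81 on the log2 fold change scale (SE 0.49, 95% interval -1.85 to 0.23, adjusted p = 0.473), or 0.571-fold. This value leaned on 1 library, falling to -0.28 (adjusted p = 0.865) without wild-type replicate 5 and standing at -1.10 without wild-type replicate 4. miR-125a-5p had -0.16 (SE 0.39, -0.97 to 0.65, adjusted p = 0.885) and miR-100-5p 0.14 (SE 0.64, -1.20 to 1.48, adjusted p = 0.957). miR-99a-5p had 0.08 (SE 0.98, -1.85 to 2.00, adjusted p = 1) in the fit without the filter. The directions for miR-125a-5p, miR-100-5p and miR-99a-5p each turned when single libraries were left out, miR-99a-5p also under scaling by total counts. Over all tested microRNAs, 2.35% were called (1.86% without the filter) and the median log2 fold change was -0.07, against a median of -0.16 over the 3 tested members, of which 0 were called. The groups of 0 of these 3 members were free of overlap, against 11.8% of all tested microRNAs.

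In the compound line the 3 tested members had negative log2 fold changes, and again none passed. miR-99b-5p had -0.99 (SE 0.52, 95% interval -2.09 to 0.11, adjusted p = 0.342 by edgeR), or 0.503-fold. On counts thinned, in 1 random draw, to the smallest library total it was -1.59 (adjusted p = 0.0991). Values on thinned counts, here and below, also carry the noise of that draw. The groups of miR-99b-5p did not overlap under TMM, total-count, size-factor or upper-quartile scaling. Of all tested microRNAs, 9.8% showed groups free of overlap in this comparison, and 1 of the 3 tested members did. miR-125a-5p had -0.52 (SE 0.40, -1.36 to 0.32, adjusted p = 0.601), which moved to -1.02 (adjusted p = 0.200) without compound-deficient replicate 3, the library with the high miR-125a-5p. miR-100-5p had -0.10 (SE 0.68, -1.53 to 1.33, adjusted p = 0.954), and miR-99a-5p had -0.79 (SE 1.09, -2.94 to 1.35, adjusted p = 0.828) in the fit without the filter. The value for miR-99a-5p was -2.01 on thinned counts and -0.087 in limma on the deposited log2 values, and miR-100-5p turned to 0.14 without compound-deficient replicate 1. The share of microRNAs called was 5.88% (2.72% without the filter), the median over all tested was 0.04, and the median over the 3 members was -0.52. Upper-quartile scaling moved the median of all tested microRNAs to -0.24, and miR-99b-5p then stood at -1.26.

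The changes of the 2 lines were not shown to differ. The difference of the log2 fold changes, compound line minus Xbp1 line, was -0.18 for miR-99b-5p (SE 0.72, 95% interval -1.69 to 1.33, adjusted p = 0.989 by edgeR) and -0.36 for miR-125a-5p (SE 0.56, -1.53 to 0.81, adjusted p = 0.908). It was -0.23 for miR-100-5p (SE 0.94, -2.19 to 1.73, adjusted p = 0.989) and -0.87 for miR-99a-5p (SE 1.46, -3.73 to 1.99, adjusted p = 1.00, without the filter). These intervals are wide enough to hold differences of more than 1 log2 unit either way for miR-99b-5p, miR-100-5p and miR-99a-5p. The difference for miR-99b-5p turned positive without Xbp1-line wild-type replicate 4 (0.056), and that for miR-100-5p without Xbp1-deficient replicate 3 (0.38). On thinned counts the difference was -0.92 for miR-99b-5p (-0.78 without Xbp1-line wild-type replicate 5) and -2.13 for miR-99a-5p, which stood at -0.27 in limma on the deposited log2 values. Of all tested microRNAs, 0% passed edgeR's threshold here (0.248% without the filter), with 26 at an unadjusted p under 0.05 and 0 called by DESeq2 or limma voom. The median over the 3 members was -0.23, against 0.03 over all.

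The mean change of miR-99b-5p over both lines was the comparison in which a member came nearest to the threshold, and whether it passed depended on the filter. It was -0.90 (SE 0.36, 95% interval -1.66 to -0.15, adjusted p = 0.140 by edgeR), or 0.536-fold, deficient against wild type. In the fit without the filter it was -0.91 (SE 0.28, -1.46 to -0.36) with an adjusted p of 0.0365. That p-value may be too small, since the fit without the filter made almost no allowance for error in its estimate of the spread. Leaving out Xbp1-line wild-type replicate 4, the low one, gave -1.08 with an adjusted p of 0.0396, while leaving out replicate 5 of that group gave -0.67 with an adjusted p of 0.308. Over all 25 alternatives it kept its negative sign, between -1.13 and -0.67, with adjusted p-values from 0.0365 to 0.469. miR-125a-5p had a mean change of -0.34 (SE 0.28, -0.92 to 0.25, adjusted p = 0.564), miR-100-5p 0.02 (SE 0.47, -0.97 to 1.01, adjusted p = 0.989) and miR-99a-5p -0.36 (SE 0.73, -1.79 to 1.07, adjusted p = 1.00, without the filter). The sign for miR-100-5p turned under 5 of the scalings, filters and tools tried, and that for miR-99a-5p under limma on the deposited log2 values (-0.95 on thinned counts). Across all tested microRNAs 7.45% were called (3.71% without the filter) and the median was 0.00, against -0.34 over the 3 members.

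Between the deficient genotypes, miR-99b-5p had nearly equal means. Compound-deficient minus Xbp1-deficient, miR-99b-5p stood at 0.01 on the log2 fold change scale (SE 0.51, 95% interval -1.06 to 1.09, adjusted p = 0.987 by edgeR), with mean levels of 36.0 and 37.6 CPM. Its sign changed with scaling (-0.22 under upper-quartile scaling, -0.63 on thinned counts), and the interval admits about 1 log2 unit either way. miR-125a-5p had 0.13 (SE 0.40, -0.70 to 0.97, adjusted p = 0.899), negative under upper-quartile scaling (-0.11). miR-100-5p had 0.35 (SE 0.67, -1.05 to 1.76, adjusted p = 0.817), -0.032 without Xbp1-deficient replicate 1 and 0.97 without replicate 3. miR-99a-5p had -1.31 (SE 1.08, -3.43 to 0.80, adjusted p = 0.579, without the filter), and -2.44 on thinned counts. Of all tested microRNAs, 7.45% were called (2.23% without the filter), 11.8% showed groups free of overlap, and the median was 0.13. None of the 3 tested members was called or free of overlap, and their median was 0.13.

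The wild types of the lines gave a reading of the background between lines. Compound line minus Xbp1 line, miR-99b-5p had 0.20 (SE 0.49, 95% interval -0.84 to 1.23, adjusted p = 0.956 by edgeR), which turned to -0.14 without Xbp1-line wild-type replicate 4. miR-125a-5p had 0.49 (SE 0.39, -0.33 to 1.31, adjusted p = 0.766) and miR-100-5p 0.59 (SE 0.66, -0.80 to 1.97, adjusted p = 0.853). miR-99a-5p had -0.44 (SE 1.01, -2.43 to 1.54, adjusted p = 1, without the filter), and 0.042 without compound-line wild-type replicate 4. Of all tested microRNAs, 0% were called by edgeR (1.73% without the filter), with 24 at an unadjusted p under 0.05, 3 called by DESeq2 and 0 by limma voom. Groups free of overlap made up 4.31%, and 0 of the 3 members were among them. The median over the members was 0.49, against 0.00 over all.

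**Figure D4:**
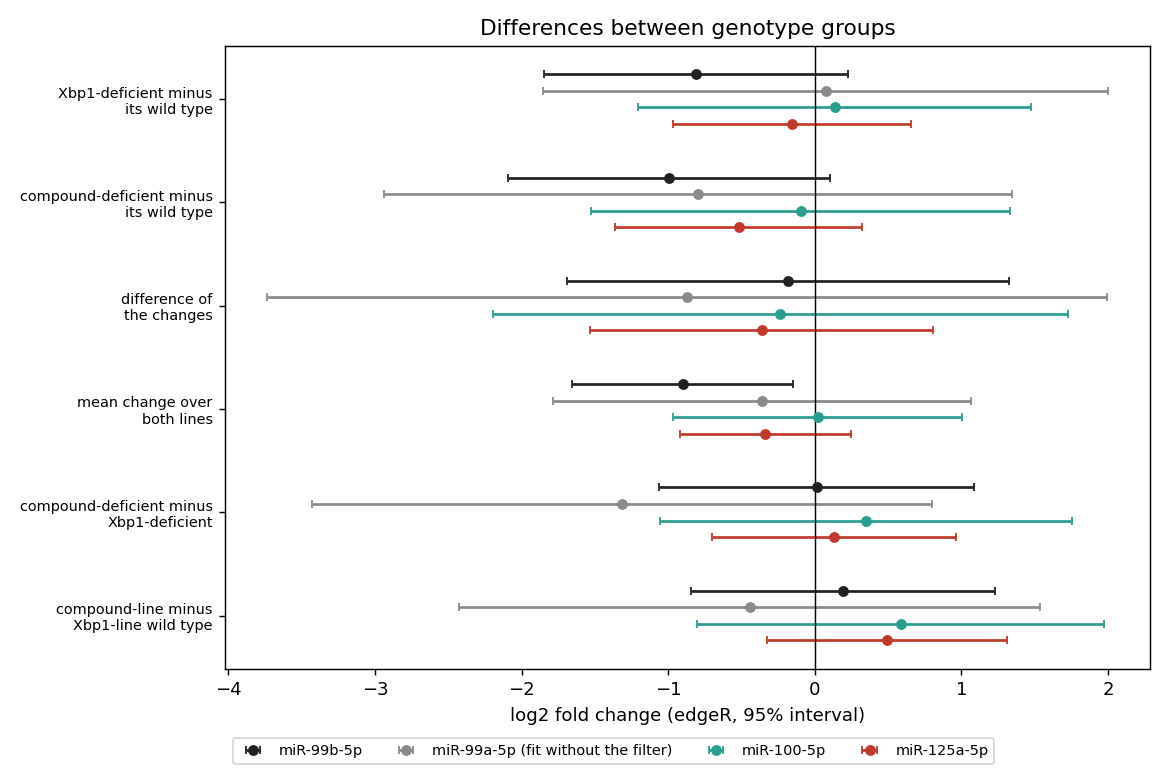
Log2 fold change of each member in 6 comparisons, with the edgeR estimate as a point and its 95% interval as a line (miR-99a-5p from the fit without the filter). The interval of the mean change of miR-99b-5p, -1.66 to -0.15, is the one that leaves out 0, and its adjusted p is 0.140.

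The ratio of the counts of miR-99b-5p to those of miR-125a-5p, which come from 1 locus, was taken in each library. As for any microRNAs counted in the same library, this ratio does not depend on scaling. It ran from 0.400 to 1.36 in Xbp1-line wild types (mean log2 ratio -0.26 ± 0.78, SD, n = 4) and from 0.352 to 0.755 in Xbp1-deficient cDC1s (-0.88 ± 0.45). It ran from 0.585 to 0.957 in compound-line wild types (-0.49 ± 0.30) and from 0.179 to 1.31 in compound-deficient cDC1s (-0.95 ± 1.17). miR-125a-5p was the more abundant in 13 of 16 libraries, and the exceptions were Xbp1-line wild-type replicates 5 and 8 and compound-deficient replicate 1. The extremes both lay in the compound-deficient group, in replicate 3 (12 counts of miR-99b-5p and 67 of miR-125a-5p) and replicate 1 (55 and 42). The ranges of all groups overlapped.

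The microRNAs of the shared locus rose and fell together across libraries to a moderate degree. Pearson's r of their log2 CPM over 16 libraries was 0.57 (permutation p = 0.0213, 0.0491 after Benjamini-Hochberg adjustment over 6 coefficients), and Spearman's rho was 0.67 (permutation p = 0.00561, adjusted 0.0337). Without Xbp1-deficient replicate 1 and Xbp1-line wild-type replicate 4, the libraries farthest from the median of miR-99b-5p, r was 0.47 (permutation p = 0.0908, adjusted 0.0908) and rho 0.59 (permutation p = 0.0312, adjusted 0.0491) over 14 libraries. The linear relation thus rested in part on those low libraries. On deviations from the group means, r was 0.50 (permutation p = 0.0493, adjusted 0.0592) and rho 0.54 (permutation p = 0.0327, adjusted 0.0491). These deviations were shuffled across all groups, with no allowance for the group means removed, so both permutation p-values are likely too small. The adjusted values of 0.0491 share this limit, since the adjustment ran over all 6 coefficients. Neither level followed depth: r with the log2 library total was 0.01 for miR-99b-5p and 0.03 for miR-125a-5p.

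**Figure D5:**
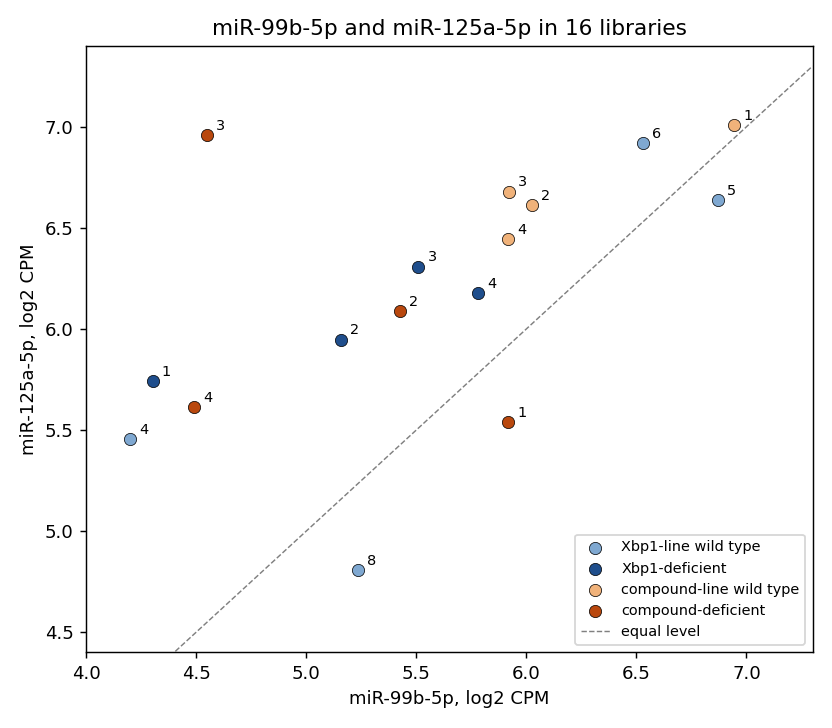
Level of miR-125a-5p (y axis) against miR-99b-5p (x axis), both in log2 CPM, with 1 point per library, its replicate number beside it, the genotype group as colour and a dashed line where the levels are equal. Pearson's r is 0.57 over 16 libraries, and compound-deficient replicate 3, with 22.0 CPM of miR-99b-5p and 123 CPM of miR-125a-5p, stands off the trend.

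Likeness of pattern was described by Pearson's r of log2 CPM over the 16 libraries, against 254 other tested microRNAs and with no test. Closest to miR-99b-5p were the microRNAs MIMAT0000158 (r = 0.65) and MIMAT0017053 (r = 0.59), and its locus partner miR-125a-5p came at place 4. Closest to miR-125a-5p were MIMAT0031420 (r = 0.72) and miR-100-5p (r = 0.65), with miR-99b-5p at place 5. Closest to miR-100-5p were miR-125a-5p (r = 0.65) and MIMAT0027344 (r = 0.63). Among the members, miR-125a-5p had a higher r with miR-100-5p (0.65), from another chromosome and seed family, than with miR-99b-5p (0.57). The difference between these coefficients was not tested, and miR-100-5p had only 2 to 23 counts per library. miR-100-5p and miR-99b-5p, which share a seed, had r = 0.37. All of these coefficients come from the same 16 libraries, and r with the log2 total was -0.34 for miR-100-5p.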

How the data were processed

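Small RNA was sequenced from sorted splenic cDC1s in 16 samples, 4 per group, with groups and replicate numbers taken from the sample descriptions. The authors deposited raw counts for 853 microRNAs, 45 of them at 0 in every library, and log2 values for 473, which hold all 4 members. From the values, each log2 value is that of the count plus 0.5 with 1 constant per library. Per the submitters' processing notes, Bowtie 1.1.2, cutadapt 1.8.1, limma 3.42.2 and FastQC 0.11.3 were used, with GRCm38 and mm10 as builds and no roles stated. The microRNA release and the handling of reads with several matches are not stated. No molecular identifiers are named, so the floor given for a count of 0 covers counting error only. The 95% intervals of the fold changes come from the edgeR fit and include the spread between libraries.

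The main test was edgeR 4.0.16 (R 4.3.3) on the raw counts: TMM, filterByExpr with a count minimum of 10, 1 quasi-likelihood fit of 4 group means over 16 libraries, two-sided tests, and Benjamini-Hochberg adjustment over all tested microRNAs with a threshold of 0.05. The 255 microRNAs past the filter held 99.87% of the counts in the library where their share was lowest. Log2 CPM used a prior count of 1. Permutation tests drew 100000 resamples. Alternatives were other scalings, filters, DESeq2 1.42.0, limma 3.58.1, thinned counts, the compared groups alone, a replicate block and leaving out each library. Counts were thinned in 1 random draw, and the spread between draws was not measured. The fit was also run on simulated data, for the Xbp1-line comparison only, and the outcome is not given here. Loci came from GENCODE M21 and sequences from RefSeq.

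The members, the lists and the tests were chosen with earlier results of these data known. The genes named are the 4 members and, for each tested member, the 2 microRNAs nearest to it by r. Relatives, partners from the same clusters and marker microRNAs listed for naming could not be matched to identifiers and are not analysed here. Of 24 pairs of libraries within a group, none differed by as little as sampling noise (lowest chi-square per degree of freedom 15.7). Each library was counted as 1 replicate, though this does not show that the libraries came from separate mice.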

Additional observations from a re-analysis of the deposited data

Results flagged for a closer look

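In 2 of the 20 sets of 4 libraries examined, 1 library stood apart from the other 3 by more than Dixon's 95% limit on the gap as a share of the range. Chance alone gives about 1 in 20 such sets. miR-99b-5p in compound-line wild-type replicate 1 stood at 122 CPM, with the others at 59.1 to 63.8 CPM, and its gap on the log2 scale was 0.894 of the range. Without this library the change of miR-99b-5p in the compound line was -0.80 on the log2 scale (adjusted p = 0.535 by edgeR), against -0.99 with it. miR-99a-5p in Xbp1-deficient replicate 2 stood at 4.16 CPM on 4 counts, with the others at 11.6 to 13.4 CPM, and its gap was 0.866 of the range.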

How the results depend on the processing

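Of 478 alternative values for the members' comparisons, 425 kept their direction and side of the threshold, 51 changed sign, 2 newly passed and 0 ceased to pass, since no main value had passed. In both lines and in their mean, miR-99b-5p stayed negative under every alternative run, and so did miR-125a-5p in the compound line and in the mean. Counts of 0 to 23 per library limited the precision for miR-99a-5p and miR-100-5p. The cause of the sign changes was not tested.

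The mean change of miR-99b-5p passed without the filter (-0.91) and without Xbp1-line wild-type replicate 4, and leaving out single libraries gave -1.12 to -0.67. For compound-deficient minus Xbp1-deficient, miR-99b-5p was -0.042 with size factors, -0.22 with upper quartiles, -0.14 with no filter, -0.043 with a 10 CPM filter, -0.062 in DESeq2, -0.10 in limma on the deposited values, -0.0037 with the compared groups alone and -0.63 on thinned counts. There miR-125a-5p was -0.11 with upper quartiles, -0.028 with no filter, -0.031 in limma on the deposited values and -0.018 on thinned counts. Leaving out single libraries gave -0.48 to 0.13 for miR-99b-5p, -0.39 to 0.24 for miR-125a-5p and -0.032 to 0.97 for miR-100-5p in that comparison. In the Xbp1 line, miR-99a-5p was -0.062 with total counts and miR-125a-5p 0.16 in limma on the deposited values, and leaving out single libraries gave -0.15 to 0.48 for miR-99a-5p, -0.38 to 0.17 for miR-125a-5p and -0.53 to 0.55 for miR-100-5p. Also with single libraries left out, miR-100-5p in the compound line ranged from -0.42 to 0.14. With single libraries left out, the difference of the changes ranged from -0.78 to 0.056 for miR-99b-5p and from -0.71 to 0.38 for miR-100-5p, and the wild types from -0.14 to 0.70 for miR-99b-5p and from -0.83 to 0.042 for miR-99a-5p. The mean change of miR-100-5p was -0.11 with total counts, -0.086 with upper quartiles, -0.024 with a 10 CPM filter, -0.15 in limma voom and -0.0048 in limma on the deposited values, with -0.34 to 0.19 when single libraries were left out. That of miR-99a-5p was 0.047 in limma on the deposited values.

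The correlation of miR-99b-5p with miR-125a-5p, 0.57, was 0.459 without the Xbp1-line wild types, 0.423 without the compound-line wild types and 0.786 without the compound-deficient group.

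Scaling shifted the median of all tested microRNAs by more than 0.1 in several comparisons, at most in the difference of the changes, from 0.03 to -0.36 with upper quartiles. The number of microRNAs called moved by more than 1.5 times in these cases: in the Xbp1 line, from 6 to 15 with no filter, 17 in DESeq2, 3 in limma on the deposited values and 11 with the compared groups alone; in the compound line, from 15 to 24 with upper quartiles, 1 in limma on the deposited values, 9 with the compared groups alone and 4 with the block; in the difference, from 0 to 3 with upper quartiles and 2 with no filter; in the mean change, from 19 to 30 with no filter and 29 in DESeq2; between the deficient groups, from 19 to 30 in DESeq2, 0 in limma on the deposited values and 8 with the compared groups alone; and between the wild types, from 0 to 14 with no filter, 3 in DESeq2 and 2 with the compared groups alone. Leaving out single libraries gave 2 to 8 calls in the Xbp1 line, 6 to 20 in the compound line, 0 to 28 between the deficient groups and 0 to 2 between the wild types.

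Correlations of same-numbered deviations were 0.11, -0.26, 0.26 and 0.01 in the compound line and 0.04, -0.07, 0.10 and 0.08 between the deficient groups. In the compound line, wild-type replicates 1 and 3 were closest to the deficient library of their own number, and replicates 2 and 4 were not. Between the deficient groups, only replicate 3 was. With 4 libraries per group, these values cannot decide whether the numbers pair the samples. With the replicate block, miR-99b-5p was -1.15 (adjusted p = 0.121) in the compound line and -0.0040 between the deficient groups, where its sign changed, and miR-125a-5p was -0.67 (adjusted p = 0.504). The Xbp1-line groups share too few numbers for such a fit.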
